A study of Mus musculus with 45 samples.

Results

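Cajal-Retzius cells are early-born neurons of the outermost layer of the cerebral cortex. They secrete Reelin, the large extracellular protein that guides the migration of later-born cortical neurons, and many of them die after birth. The genes described here are 8 genes known to mark these cells: Reln, Trp73, Lhx1, Lhx5, Calb2, Ebf2, Ebf3 and Nhlh2. They were chosen by name, from knowledge of the cell type and not by a threshold on any value, out of the 53491 genes listed in each of 9 tables. Earlier results of these data were known when the 8 genes were chosen. None of them is exclusive to the cell type, since Reln and Calb2 are also used by cortical interneurons, which enter the cortex from the ventral forebrain during the same days, and Ebf, Lhx and Nhlh genes are used by other young neurons.

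The cells were primary cortical cells of wild-type mouse embryos at the embryonic days E11.5, E14.5 and E16.5, with 3 pools of embryos (A, B and C) per stage and cortices of 7 embryos per pool at E11.5 or 2 embryos per pool later. The dissociated cells were left for 2 h to attach, grown for 20 h with 100 µM 4-thiouridine (4sU), a uridine analogue that is built into new RNA, and then chased with 5 mM uridine for 0, 2, 4, 8 or 12 h, which gave 45 libraries. Alkylated 4sU is read as C in place of T (SLAM-seq), so the share of covered Ts that were converted reports how much of a transcript is labelled. All groups had thus spent nearly a day in a progenitor culture medium with bFGF before the 0 h library, and all libraries came from labelled cells.

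The libraries held 15.9 to 43.9 M reads (median 33.0 M) and 229 to 629 M covered Ts. All 8 genes had at least 1 read in every library, the lowest being 4 reads for Lhx1 and 7 reads for Ebf2. At 0 h all 8 passed the minimum of more than 10 covered Ts in all 9 libraries. Markers of other tissue were also read. Levels are given in cpm, which is reads scaled to the size of the library. At 0 h the summed level of 8 meningeal genes was 504 to 730 cpm at E11.5, 38.3 to 43.0 cpm at E14.5 and 40.8 to 47.3 cpm at E16.5. The summed 0 h level of 12 interneuron genes ran the other way, from 65.5 to 71.9 cpm through 135 to 163 cpm to 590 to 626 cpm. Lhx6 and Sst, which mark interneurons of a single ventral source, were however at most 0.12 and 0.048 cpm at 0 h of E11.5. In these mixed cells a lower level can be fewer cells of the type or less RNA per cell, and the 2 cannot be told apart.

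Reln, the ligand, went against the rest. Its level was 51.2, 40.8 and 67.1 cpm in pools A, B and C at E11.5, 141, 155 and 155 cpm at E14.5 and 127, 103 and 197 cpm at E16.5. Every later pool was above every E11.5 pool, and the E14.5 and E16.5 pools overlapped. The log2 fold change was 1.57 ± 0.21 (SE) from E11.5 to E14.5 (edgeR quasi-likelihood test, Benjamini-Hochberg adjusted p = 4.7e-05) and 1.50 ± 0.21 from E11.5 to E16.5 (adjusted p = 3.68e-05), and −0.07 from E14.5 to E16.5, which did not pass. Over all 15 libraries of a stage Reln ran from 40.8 to 92.6 cpm at E11.5, from 116 to 165 cpm at E14.5 and from 86.3 to 197 cpm at E16.5.

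Ebf2 fell furthest of the 8. Ebf2 and Ebf3 encode related helix-loop-helix transcription factors of young neurons. Ebf2 was at 59.2, 49.4 and 93.2 cpm at E11.5, at 1.68, 1.35 and 1.24 cpm at E14.5 and at 0.343, 0.664 and 0.561 cpm at E16.5, so that no pool of one stage overlapped another stage. The log2 fold change was −5.55 ± 0.26 to E14.5 (edgeR adjusted p = 3.21e-09), a further −1.32 ± 0.23 to E16.5 (adjusted p = 0.000459) and −6.87 ± 0.28 over the whole interval (adjusted p = 3.26e-10). The E16.5 values rest on 9 to 28 reads a library. With whole reads in place of covered Ts, where the reads of pool A at E16.5 fall under the minimum, the second step was not tested.

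Ebf3 stepped down once and then held its level. It was at 14.2, 13.1 and 17.5 cpm at E11.5, at 3.99, 4.55 and 3.49 cpm at E14.5 and at 3.84, 3.39 and 5.13 cpm at E16.5. All later pools lay below all E11.5 pools, while E14.5 and E16.5 overlapped, with log2 fold changes of −1.79 ± 0.20 to E14.5 (edgeR adjusted p = 9.48e-06) and −1.80 from E11.5 to E16.5 (adjusted p = 4.16e-06). Calb2, which encodes the calcium-binding protein calretinin, had the same shape. It was at 16.47, 14.6 and 20.3 cpm, then 5.77, 6.56 and 6.87 cpm, then 5.02, 4.53 and 7.45 cpm, and its log2 fold change was −1.39 ± 0.18 to E14.5 (adjusted p = 2.69e-05) and −1.51 to E16.5 (adjusted p = 6.13e-06).

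Nhlh2 and Trp73 were called lower over the whole interval from E11.5 to E16.5, and Nhlh2 already at E14.5. Nhlh2, a basic helix-loop-helix transcription factor of neurons that have just left the cell cycle, was at 25.7, 23.0 and 32.4 cpm at E11.5, 9.32, 10.5 and 9.45 cpm at E14.5 and 3.73, 3.65 and 7.67 cpm at E16.5. The stages did not overlap. Its log2 fold change was −1.45 ± 0.25 to E14.5 (edgeR adjusted p = 0.000376) and −2.36 ± 0.26 to E16.5 (adjusted p = 3.66e-06), and the step from E14.5 to E16.5, −0.91 ± 0.25 with an adjusted p of 0.00907, stayed under the fold limit of 1 on the log2 scale. Without pool C of E16.5 that step was −1.38 and was called (adjusted p = 2.4e-05).

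The transcript of Nhlh2 carries letters that the other 7 genes lack, shown here as the one searched sequence feature that sets it apart among the 8. The 3′ untranslated region of its longest coding isoform, 1445 bases long, holds TTATTTAT 2 times, where 12.3% of 20636 coding genes hold it at least once. The shorter letters ATTTA, which TTATTTAT contains, occur 5 times in Nhlh2, 6 times each in Ebf2 and Ebf3, 2 times in Reln, 1 time in Calb2 and not in Trp73, Lhx1 or Lhx5, and 61.6% of genes hold them. The letters TGTANATA, which Pumilio proteins bind, are in none of the 8 and in 21.5% of genes. All were searched on the transcript strand. The 2 stretches of Nhlh2 lie in its last exon on mouse build GRCm38 at chr3:102013873-102013896 and chr3:102013962-102013985, plus strand, with TTATTTAT in capitals.
Nhlh2 site at UTR base 820: acctatttTTATTTATgttagaag
Nhlh2 site at UTR base 909: gtgccaatTTATTTATagtcaagt
A match is a description of letters and shows no binding.

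Trp73 encodes p73, the p53 relative that Cajal-Retzius cells of the cortical hem need to survive. It was at 11.9, 8.70 and 17.5 cpm at E11.5, at 6.71, 6.93 and 7.41 cpm at E14.5 and at 3.50, 3.63 and 8.44 cpm at E16.5. The E14.5 pools lay below the E11.5 pools, and pools A and B of E16.5 lay below the E14.5 pools, while pool C of E16.5 stood above all E14.5 pools and just under the lowest E11.5 pool. The log2 fold change was −1.24 ± 0.32 from E11.5 to E16.5 (edgeR adjusted p = 0.00427), while −0.81 ± 0.32 to E14.5 (adjusted p = 0.0519) and −0.43 from there (adjusted p = 0.283) did not pass. The whole-interval fold dropped under the limit, to −0.93 and −0.99, when E11.5 pool C or E16.5 pool A was left out.

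Lhx1 and Lhx5, LIM-homeodomain transcription factors of Cajal-Retzius cells and of other early neurons, were the lowest of the 8 at E11.5. Lhx1 was at 1.65 ± 0.264 cpm (SD, n = 3) at E11.5, 0.831 ± 0.110 cpm at E14.5 and 1.25 ± 0.479 cpm at E16.5. Its fall to E14.5 was just past the fold limit (−1.03 ± 0.31, edgeR adjusted p = 0.0144), and it was −0.90 without E11.5 pool C, −0.96 without E14.5 pool C and −0.96 with whole reads. From E14.5 to E16.5 it was 0.73 ± 0.31 (adjusted p = 0.0675), which did not pass but was called without E16.5 pool B (1.02, adjusted p = 0.0081), and from E11.5 to E16.5 it was −0.31 (adjusted p = 0.402). Lhx5 was at 2.60 ± 0.358, 1.37 ± 0.302 and 1.62 ± 0.819 cpm and passed in no pair of stages (−0.82 ± 0.34 to E14.5, adjusted p = 0.0639, and −0.52 to E16.5, adjusted p = 0.198). Without E16.5 pool C, the last of these was −1.06 and was called (adjusted p = 0.009).

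**Figure D1:**
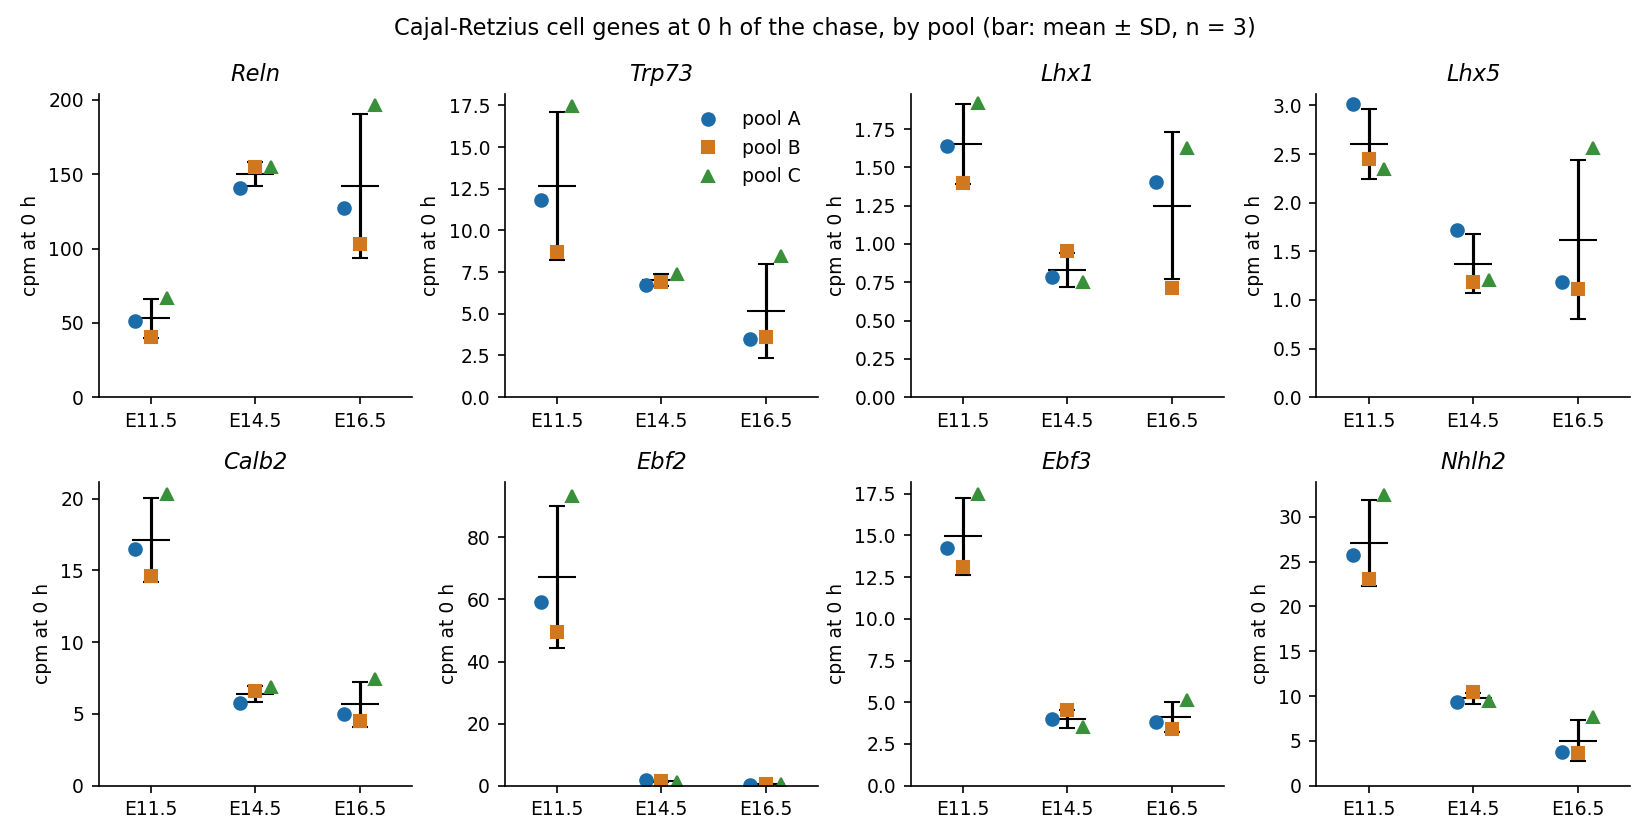
Level of each gene at 0 h in cpm (vertical axis, linear from 0) in pools A, B and C of E11.5, E14.5 and E16.5, with the mean and SD of 3 pools as a bar. Reln is higher at both later stages, Ebf2 drops from 49.4 to 93.2 cpm to under 2 cpm, and pool C is the highest pool for most genes at E11.5 and E16.5.

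Among the 8 genes, 1 was called higher and 5 lower from E11.5 to E14.5, where 8.14% of the 18408 genes tested were called higher and 8% lower. From E14.5 to E16.5 the counts were 0 and 1 (Ebf2), against 7.19% and 5.92% of all genes; DESeq2 also called 1 gene, and 3 had an unadjusted edgeR p under 0.05. From E11.5 to E16.5 they were again 1 and 5, against 14.7% and 14.6%. The median log2 fold change of the 8 was −1.21, −0.10 and −1.38 for the 3 pairs, with medians over all genes tested of −0.01, −0.00 and −0.04. Reln, Ebf2, Ebf3, Calb2 and Nhlh2 kept their calls from E11.5 to E14.5 whichever single library was left out. When the fold limit was built into the test (glmTreat), 3 genes were called in that pair.

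**Figure D2:**
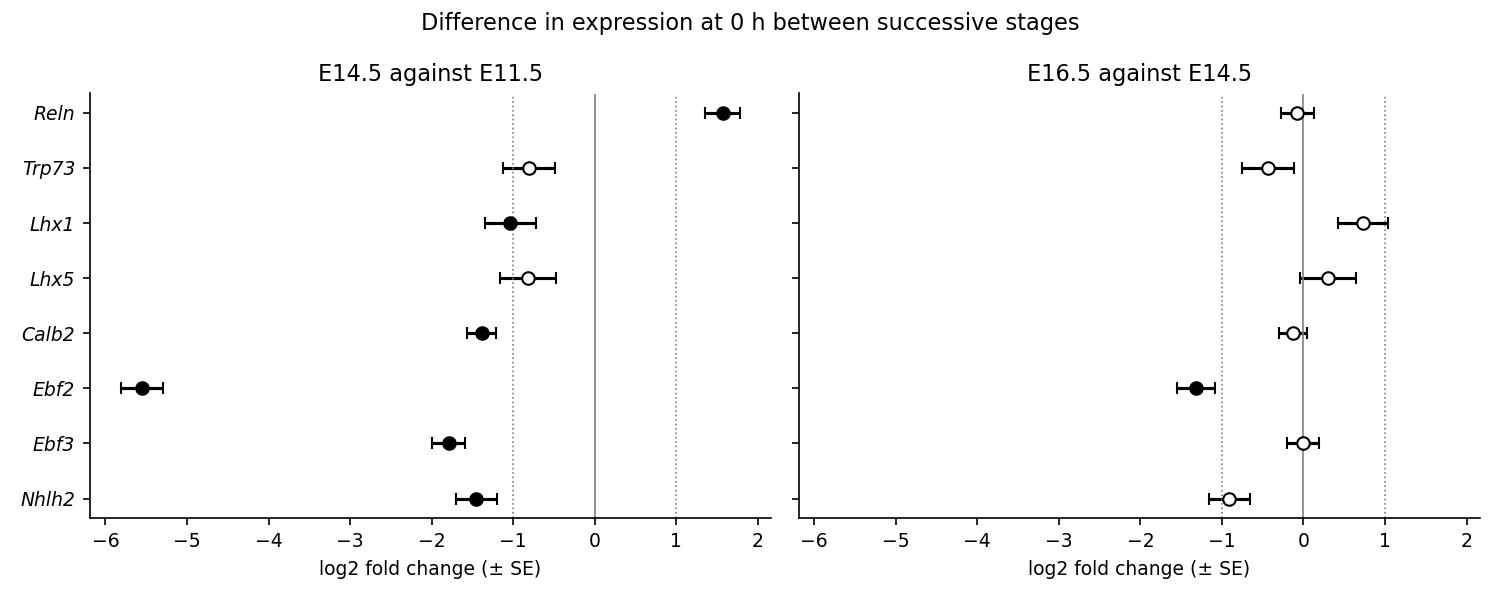
Fitted log2 fold change of each gene between successive stages at 0 h, with the standard error as the bar and the fold limit as dotted lines. From E11.5 to E14.5 only Reln lies above 0, at 1.57, and Ebf2 reaches −5.55.

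Per kilobase of exon, which allows genes to be set side by side, the order of levels turned over with stage. At E11.5 Calb2 and Ebf2 were highest with 9.83 and 9.71 cpm per kb, then Nhlh2 with 5.00, Trp73 with 2.29, Reln with 2.23, Ebf3 with 1.62, Lhx5 with 0.968 and Lhx1 with 0.406. Among neighbours in that order the pools of Calb2 and Ebf2, of Trp73 and Reln, and of Reln and Ebf3 overlapped, and the other neighbours stood apart. At E14.5 Reln was highest with 6.32 cpm per kb ± 0.339 (SD, n = 3), Calb2 followed with 3.67, and Ebf2 and Lhx1 were lowest with 0.205 and 0.204 and overlapped. At E16.5 Reln was again highest with 5.995 cpm per kb ± 2.04, and its lowest pool (4.35) was just above the highest of Calb2 (4.27), whose mean was 3.25. Ebf2 was lowest with 0.0754, apart from all other genes. Exons of Reln share 246 bases with an antisense gene, those of Trp73 280, Lhx5 69, Ebf2 424 and Ebf3 355, and the libraries were made with a stranded kit. The paralogues share identical stretches of at most 20 bases (Lhx1 and Lhx5) and 23 bases (Ebf2 and Ebf3).

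Pool C stood out within its stages. At E11.5 pool C was the highest of the 3 for every gene but Lhx5, and at E16.5 for every gene but Ebf2. The summed level of 14 genes of the places where Cajal-Retzius cells are born, among them the cortical hem, was also highest in that E11.5 pool, with 36.8, 37.9 and 76.7 cpm in A, B and C. Wnt8b was at 8.65, 5.96 and 16.7 cpm and Rspo2 at 3.60, 4.42 and 15.03 cpm. Other genes of the list went otherwise, with Msx1 (2.86, 6.01 and 3.65 cpm) and Wnt2b highest in pool B and Msx2 in pool A. The part of the dissection in the spread between pools was not tested. With both C pools left out, an alternative chosen after seeing the data, Nhlh2 joined Ebf2 as called from E14.5 to E16.5.

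The genes of the places of origin went different ways. Of 14 listed genes of the hem, the pallial-subpallial boundary and the septum, 5 had enough counts to be tested, and 3 of them fell to E14.5 while 1 rose. The test required more than 10 covered Ts in all 9 libraries, so genes unread at a later stage were left out of it. Among these untested genes, the mean 0 h level of Wnt8b in order of stage was 10.4, 0 and 0.196 cpm. That of Wnt3a was 1.38, 0 and 0.0089 cpm. Wnt2b, also untested, was low throughout, with 0.0868, 0.0231 and 0.122 cpm. Lmx1a, a transcription factor of the hem, fell by 3.53 on the log2 scale to E14.5 and by 3.85 to E16.5 (edgeR adjusted p = 1.07e-05), and Rspo1, a secreted Wnt enhancer, fell by 4.84 to E16.5 (adjusted p = 2.57e-06). Rspo3, of the same family, rose by 4.08 to E14.5 (adjusted p = 1.99e-07), and Rspo2 fell by 4.26 to E14.5 and rose by 4.15 to E16.5. Wnt5a stayed under the fold limit in all pairs of stages. The summed level of the 14 genes was 36.8 to 76.7 cpm at E11.5, 165 to 174 cpm at E14.5 and 145 to 152 cpm at E16.5, of which Rspo3 alone made up 159 to 169 cpm at E14.5 and 128 to 134 cpm at E16.5.

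Other genes known in Cajal-Retzius cells did not move as one group. Of 8 such genes, all tested, 1 was called higher and 3 lower from E11.5 to E14.5, and 3 higher and 2 lower from E11.5 to E16.5. Ebf1 fell by 3.80 on the log2 scale to E14.5 (edgeR adjusted p = 1.53e-07) and then rose by 2.27 (adjusted p = 1.22e-05). Mab21l1 fell by 2.24 to E14.5, with an adjusted p of 0.000194. Ndnf rose by 1.45 and Barhl2 by 1.14 from E11.5 to E16.5, and Car10 rose by 2.62 from a level of at most 0.231 cpm. Cxcr4, the chemokine receptor that holds the cells under the meninges, fell by 1.59 and then rose by 1.17.

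The 18 listed genes that receive and carry the Reelin signal run from the receptors Vldlr and Lrp8 through the adaptor Dab1 to kinases, Rap1 and the Dab1-degrading complex. From E11.5 to E14.5 and from E14.5 to E16.5 none passed the fold limit, by edgeR or by DESeq2, although 12 and 13 of the 18 had an edgeR adjusted p under 0.05 (13 and 14 unadjusted). From E11.5 to E16.5, 2 were called higher: Dab1 rose by 1.52 ± 0.07 on the log2 scale (edgeR adjusted p = 8.99e-10), from 132 to 150 cpm to 362 to 386 cpm, and Socs7, which targets Dab1 for degradation, rose by 1.05 ± 0.07 (adjusted p = 2.95e-08). Vldlr was at 58.0 to 65.5, 101 to 125 and 87.9 to 94.1 cpm at the 3 stages, and Lrp8 at 124 to 150, 164 to 176 and 192 to 210.0 cpm. The median log2 fold change of the 18 from E11.5 to E16.5 was 0.05.

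Interneuron genes rose across the same interval in which Reln was higher. Of 12 listed, 10 were tested. From E11.5 to E14.5, 4 rose and 2 fell, and from E14.5 to E16.5 all 10 rose. Gad1, which makes the transmitter GABA, rose by 6.76 on the log2 scale from E11.5 to E16.5 (edgeR adjusted p = 9.73e-13), Slc32a1, the vesicular GABA transporter, by 6.11 and Gad2 by 4.99. The summed level of the list rose at both steps, and Reln at the first alone. Of the 135 to 163 cpm of that sum at E14.5, Sst made up 44.6 to 69.5 cpm and Lhx6 15.4 to 17.2 cpm. Both had 0 cpm in at least 1 pool of E11.5 at 0 h and were not among the genes tested. The part of the interneuron genes in the level of Reln or Calb2 was not tested.

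In label content E16.5 stood apart from both earlier stages. Label content was measured as the conversion rate of a gene at 0 h, after 20 h of 4sU, set against the rate of its whole library on the log2 scale, so that a value below 0 means less labelled than the average transcript. The library rate itself was highest at E16.5 (1.86% ± 0.0573; SD, n = 3), against 1.18% ± 0.230 for E11.5 and 1.10% ± 0.0763 for E14.5. Of the 8 genes, 5 had more than 500 covered Ts in all 9 libraries: Reln, Trp73, Calb2, Ebf3 and Nhlh2. Lhx1, Lhx5 and Ebf2 did not reach that coverage.

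Reln was below its library in every pool and further below at each stage. Its relative rate was −0.39, −0.60 and −0.46 in pools A, B and C at E11.5, −0.95, −0.85 and −0.76 at E14.5 and −1.25, −1.24 and −1.44 at E16.5, with no overlap between stages. The difference was −0.45 ± 0.09 (SE) from E14.5 to E16.5 (limma, adjusted p = 0.0118) and −0.83 ± 0.09 from E11.5 to E16.5 (adjusted p = 0.00092). Between E11.5 and E14.5 it was −0.37 ± 0.09, which did not pass over all genes (adjusted p = 0.160). These rates rest on 365 to 738 converted Ts of 48236 to 106334 covered Ts in each E16.5 library.

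Trp73, Calb2, Ebf3 and Nhlh2 stood near each other at the first 2 stages and dropped at E16.5. Trp73 was at −0.23, −0.19 and −0.39 at E11.5, at −0.47, 0.02 and −0.50 at E14.5 and at −2.57, −1.82 and −1.45 at E16.5. Calb2 was at −0.71, −0.46 and −0.42, then −0.56, −0.32 and −0.63, then −2.17, −1.54 and −1.49. Ebf3 was at −0.25, −0.42 and −0.45, then −0.58, −0.02 and −0.17, then −1.71, −1.52 and −1.63. For all 3 genes the E16.5 pools lay apart from the earlier pools, which overlapped each other.

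Nhlh2 had the same shape with a wider spread. It was at −0.51, −0.12 and −0.38 at E11.5, at −0.78, −0.08 and −0.26 at E14.5 and at −1.92, −1.24 and −1.24 at E16.5. From E14.5 to E16.5 the differences were −1.63 ± 0.27 for Trp73 (limma, adjusted p = 0.00479), −1.23 ± 0.19 for Calb2 (adjusted p = 0.00332), −1.37 ± 0.14 for Ebf3 (adjusted p = 0.000528) and −1.09 ± 0.24 for Nhlh2 (adjusted p = 0.0159). That of Nhlh2 lost its call without E14.5 pool B (adjusted p = 0.0598) or pool C (adjusted p = 0.0514).

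**Figure D3:**
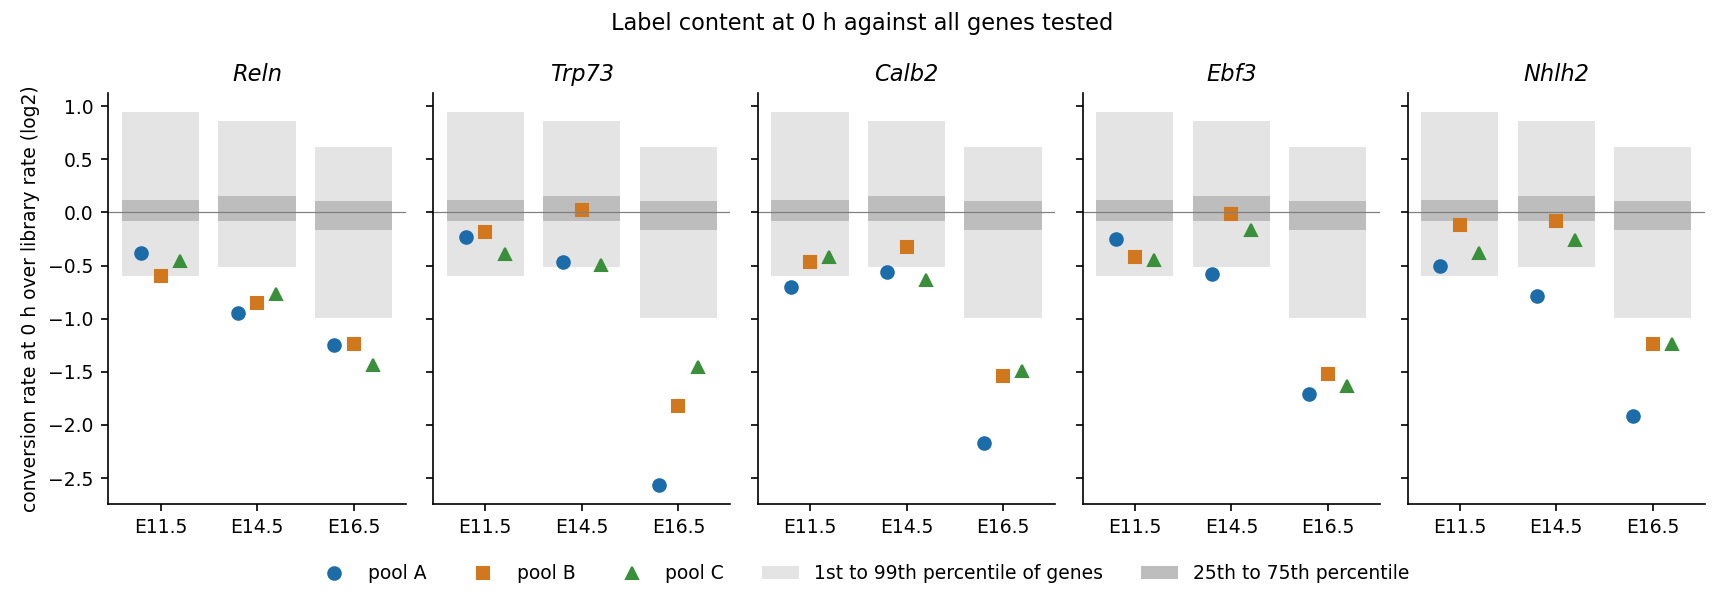
Conversion rate at 0 h relative to the library (log2, vertical axis) of the 5 covered genes in the 3 pools of each stage, over grey bands that give percentiles of the stage means of 12530 genes. At E16.5 all 5 genes lie below the band, between −1.24 and −2.57, while at E11.5 they lie between −0.71 and −0.12.

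At E16.5 all 5 genes were thus called lower than in either earlier stage (E14.5 and E11.5), where 14% and 11.9% of the 12530 genes tested were called lower. By the test over all 3 stages, all 5 were called against 18.1% of genes, with limma adjusted p-values of 0.000815 (Ebf3), 0.00188 (Reln), 0.00425 (Calb2), 0.00541 (Trp73) and 0.0185 (Nhlh2). None was called by limma between E11.5 and E14.5, where Reln alone had an unadjusted p under 0.05 (0.00338) and 0.192% of genes were called in either direction. Ranked from the lowest relative rate at E16.5 among the 12530 genes, Trp73 was number 11, Calb2 15, Ebf3 19, Nhlh2 24 and Reln 34. With more than 2000 covered Ts required, Reln alone of the 8 could be tested, and it was called.

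On the plain scale the library rate moved as well. The conversion rate of Reln at 0 h was 0.846% ± 0.193, 0.607% ± 0.0423 and 0.753% ± 0.0568 in order of stage, so it did not rise above its E11.5 level at the stage where the library rate rose. Trp73 went from 0.957% ± 0.120 and 0.888% ± 0.250 to 0.484% ± 0.209, and Ebf3 from 0.900% ± 0.154 and 0.915% ± 0.214 to 0.583% ± 0.0649. Calb2 went from 0.815% and 0.766% to 0.554%, and Nhlh2 from 0.929% and 0.862% to 0.674%. Apart from Reln, the E16.5 rates rest on few events: 3 to 27 converted Ts a library for Trp73, 6 to 23 for Calb2, 7 to 18 for Ebf3 and 7 to 39 for Nhlh2. The rate of conversions without 4sU was not measured in the libraries analysed here, and its part in rates this low was not tested.

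The lists of other genes did not share the drop as whole lists. Of 18 Reelin pathway genes, 2 (Dab1 and Socs7) were called higher and 1 (Itgb1, an integrin subunit) lower in relative rate from E11.5 to E16.5, with a median difference of 0.02, while the 5 genes had a median of −1.20. Of 5 covered genes among the other Cajal-Retzius genes, Ndnf was called lower, from −0.02 and −0.42 to −1.35 (limma adjusted p = 0.000222 from E11.5 to E16.5), and ranked 30 from the lowest at E16.5. Tbr1, a transcription factor of early-born cortical neurons in general, was called higher, from −0.55 to 0.02 (adjusted p = 0.00156). Cxcr4, Cacna2d2 and Barhl2 were not called and ranked 2139, 1455 and 117 from the lowest at E16.5. Of 6 covered interneuron genes, 2 were called lower and 0 higher. Of the 7 cortical identity genes covered, 5 were called higher and 1 lower. Of 4 covered meningeal genes, 0 were called higher and 1 lower. Zic1 of that list ranked 76 from the lowest at E16.5, and Cxcl12, Dcn and Col3a1 ranked 5371, 11822 and 12450. Of 2 covered genes of olfactory bulb projection neurons, 1 was called higher and 1 lower, with Eomes at rank 233 and Slc17a6 at 3794. Of 2 covered genes of the places of origin, 1 was called higher and 0 lower.

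Loss of label over the chase set Reln apart from Nhlh2 and Ebf2. Half-lives were refitted from the conversion rates over the 5 chase times and were used only where all 3 pools of a stage had more than 500 covered Ts at each time, a value under 24 h and an R2 over 0.6. At E11.5 Reln had 8.46, 15.8 and 8.62 h, a mean of 10.96 h ± 4.18 (SD, n = 3) at percentile 98.1 of all transcripts measured, whose median was 4.43 h. At E16.5 Reln had 11.4, 11.3 and 15.5 h, a mean of 12.7 h ± 2.40 at percentile 99.6 with a median over transcripts of 3.48 h. Reln was thus among the slowest transcripts to lose label at both stages.

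At E14.5 the decay of Reln could not be fitted within those limits. Its fits gave 170, 44.3 and 120 h with R2 of −0.01, 0.54 and 0.29. Its conversion rate was 0.607% ± 0.0423 at 0 h, 0.680% ± 0.0237 at 2 h, 0.630% at 4 h, 0.588% at 8 h and 0.501% ± 0.0264 at 12 h. Reln covered at least 37946 Ts in every E14.5 library. It passed the limit on coverage at every time and missed those on half-life and R2.

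Nhlh2 and Ebf2 lost label faster than the median transcript at E11.5. Nhlh2 had 3.94, 2.67 and 2.99 h, a mean of 3.20 h ± 0.658 at percentile 16.2, and Ebf2 had 3.38, 3.99 and 3.48 h, a mean of 3.62 h ± 0.329 at percentile 27. The pools of these 2 genes overlapped. Calb2, with 6.73 h ± 0.596 at percentile 87.4, and Ebf3, with 5.37 h ± 1.82 at percentile 71.3, were slower. Reln and Ebf2 did not overlap, nor did Calb2 and Nhlh2. Percentiles are of the stage mean among the 10858 transcripts measured at E11.5.

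Nhlh2 was the only one of the 8 with a half-life at all 3 stages. It had 6.93, 3.53 and 4.57 h at E14.5 (5.01 h ± 1.74) and 6.41, 2.34 and 2.78 h at E16.5 (3.85 h ± 2.23), at percentiles 59.8 and 59.4 and thus slower than the median transcript of those stages (4.60 and 3.48 h), and its pools overlapped between all stages. Its relative half-life was not called over the stages (limma F-test on half-lives z-scored within pools, adjusted p = 0.642), where 3.15% of the 9505 transcripts measured at all stages were called. Between E11.5 and E16.5 alone, a comparison added after seeing the data, Reln differed by 2.17 ± 0.89 z units (adjusted p = 0.245) and was not called, nor was Nhlh2 (adjusted p = 0.533), where 2.04% of 10220 transcripts were. Calb2 and Ebf3 had half-lives at E14.5 of 8.31 h ± 3.43 and 5.45 h ± 3.66. Trp73 had 2, 1 and 1 pools with an accepted fit at the 3 stages. Lhx1 and Lhx5 had the coverage in pool C of E11.5 alone, where the fit of Lhx1 was accepted and that of Lhx5 was not.

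On the same build Nhlh2 spans chr3:102010076-102015492 on the plus strand. Trp73 spans chr4:154056253-154140208, Reln chr5:21884454-22344702, Ebf3 chr7:137193673-137314445, Calb2 chr8:110137502-110168210 and Lhx1 chr11:84518284-84525535, all on the minus strand. Lhx5 spans chr5:120431699-120441223 and Ebf2 chr14:67233292-67430918, both on the plus strand. RefSeq promoters (GRCm38.p6, 250 bases before to 50 after the start) were given for Nhlh2, Trp73, Reln, Ebf3 and Lhx1, with 2 for Trp73. On either strand none of them holds TAATTA, the letters of LIM-homeodomain proteins, which 5.29% of 32850 promoters hold. The E-box letters CANNTG are found 4 times in Nhlh2, 2 times and 1 time in the promoters of Trp73, 1 time in Reln and not in Ebf3 or Lhx1, while 72.3% of promoters hold them.

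The rate left at 12 h as a share of the rate at 0 h, a measure added after seeing the data because it needs no fit, gave Reln at every stage. It was 37.5, 48.2 and 26.8% in pools A, B and C at E11.5, 86.2, 74.1 and 88.1% at E14.5 and 35.9, 36.5 and 46.6% at E16.5. The median transcript kept 22.4, 23.5 and 16.4%, then 22.2, 19.6 and 23.3%, then 11.8, 11.8 and 12.0%. Reln was at percentiles 86.5 to 94.2, 98.99 to 99.5 and 94.8 to 97.3. Every E14.5 pool of Reln was thus above every other pool.

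Set against the library median on the log2 scale, the share of Reln was 0.90 ± 0.18 higher at E16.5 than at E11.5 (limma, adjusted p = 0.0468), where 1.8% of 12125 genes were called higher. It was 1.10 ± 0.18 higher at E14.5 than at E11.5, which did not pass (adjusted p = 0.293). Ebf3 was 1.99 ± 0.38 higher at E16.5 than at E11.5 (adjusted p = 0.0390). Its E16.5 share rests on few events, with 4 converted Ts of 899 to 1634 covered Ts in each 12 h library and 7 to 18 converted Ts at 0 h. Over the 3 stages Reln (adjusted p = 0.0398) and Ebf3 (adjusted p = 0.0490) were called, against 2.27% of genes. Both of these 3-stage calls were lost when any single pool was left out, so they sit at the edge of the threshold. For Ebf3 from E11.5 to E16.5 the limma adjusted p ran from 0.0464 to 0.120 in those fits. For Reln over the same pair it ran from 0.0692 to 0.131, so that call was lost in every such fit. With the replicate block the limma adjusted p of that pair was 0.117 for Reln and 0.0974 for Ebf3.

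**Figure D4:**
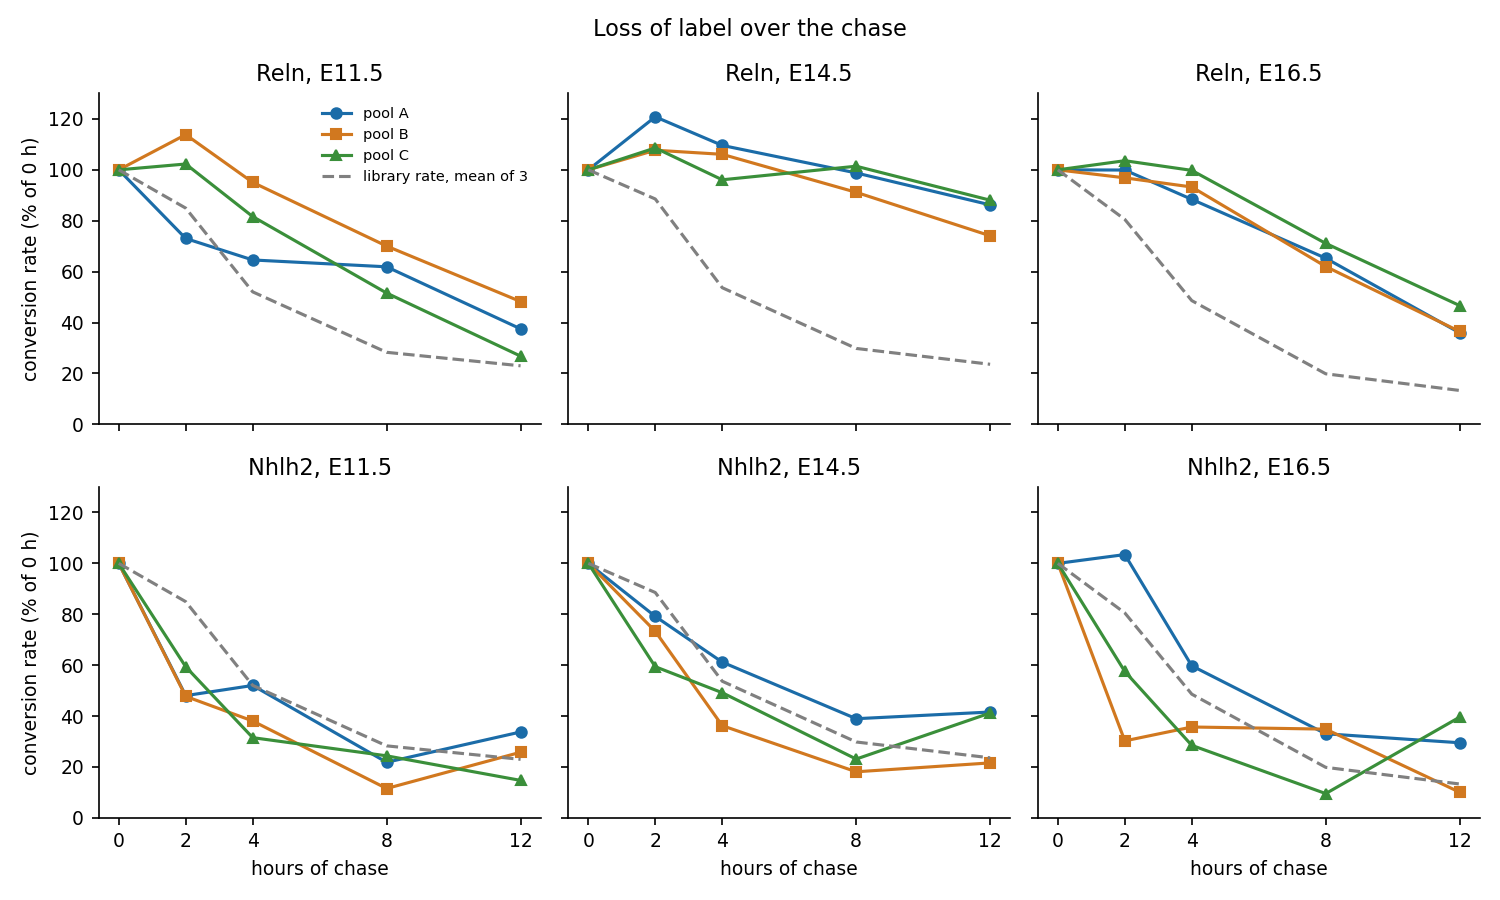
Conversion rate as a percentage of the 0 h rate (vertical axis) of Reln and Nhlh2 against chase time in hours for the 3 pools of each stage. The mean library rate, as a percentage of its own 0 h value, is dashed. At E14.5 Reln kept 74.1 to 88.1% of its 0 h rate at 12 h. Nhlh2 kept 14.7 to 33.7% at E11.5, 21.6 to 41.6% at E14.5 and 10.1 to 39.6% at E16.5.

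A half-life from label presumes a steady level, so the level at 12 h was set against that at 0 h. Pools pair these libraries, since the 5 wells of a pool held the same cells, and the fit with the pool as a block is therefore given beside the fit without it. At E11.5, 2 of the 8 genes were called without the block, against 25.2% of 17224 genes, and 7 with it, against 34.6%. At E14.5 it was 1 against 19.8%, and 5 with the block against 30.3%. At E16.5 it was 0 by edgeR and by DESeq2, with 3 at an unadjusted p under 0.05, against 19.1%, and 3 with the block against 29.6%.

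Calb2 rose at E11.5, from 16.47 to 26.8 cpm in pool A, 14.6 to 23.3 cpm in B and 20.3 to 33.5 cpm in C (log2 fold change 0.96 ± 0.20, edgeR adjusted p = 0.00183; 0.94 and 5.95e-06 with the block). Ebf2 fell from 59.2 to 30.8 cpm, 49.4 to 31.7 cpm and 93.2 to 44.4 cpm (−0.68 ± 0.23, adjusted p = 0.0361; 0.000538 with the block). Reln went from 51.2 to 62.2 cpm, 40.8 to 51.0 cpm and 67.1 to 86.0 cpm, which was called with the block alone (0.55, adjusted p = 7.11e-07; 0.0953 without). All 3 pools of each gene moved the same way. With the block Nhlh2 (−0.64, adjusted p = 1.51e-05), Trp73 (−0.35, adjusted p = 0.0377), Lhx5 (−0.83, adjusted p = 0.0308) and Ebf3 (−0.50, adjusted p = 0.0170) fell too, and Lhx1 did not pass (adjusted p = 0.0853).

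At E14.5 Ebf3 fell in both fits (−0.91 ± 0.20, edgeR adjusted p = 0.0038; −0.93 and 0.000285 with the block). With the block Lhx1 (−1.23, adjusted p = 0.0390), Ebf2 (−0.54, adjusted p = 0.00851), Trp73 (−0.47, adjusted p = 0.00848) and Calb2 (−0.45, adjusted p = 0.00676) also fell. Lhx1 fell in pools A and B alone, to 4 and 8 reads at 12 h, and went from 0.752 to 0.861 cpm in pool C. At E16.5, with the block alone, Nhlh2 rose (0.72, adjusted p = 1.27e-05) and Ebf2 (−0.67, adjusted p = 0.00806) and Ebf3 (−0.46, adjusted p = 0.0333) fell. Ebf2 and Ebf3 were thus lower after 12 h at each of the 3 stages in the paired fit. The Ebf2 values of E16.5 rest on few reads, and pool A of that stage went up, from 0.343 to 0.434 cpm.

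Nhlh2 moved in opposite directions at the first and last stage. At E11.5 it went from 25.7 to 14.8, 23.0 to 13.1 and 32.4 to 16.3 cpm, and at E16.5 from 3.73 to 5.88, 3.65 to 5.88 and 7.67 to 11.2 cpm. The change over the chase differed between the 2 stages by 1.32 ± 0.37 on the log2 scale (edgeR adjusted p = 0.0346; 1.36 and 9.29e-07 with the block). It was the only one of the 8 called without the block, against 7.36% of genes. With the block Reln (−0.48, adjusted p = 0.000332), Trp73 (0.65, adjusted p = 0.0178) and Calb2 (−0.81, adjusted p = 0.00195) were called as well, against 16.3%. The unblocked call of Nhlh2 was lost in 7 of 9 fits that left out 1 pool, with adjusted p-values of 0.054 to 0.108.

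**Figure D5:**
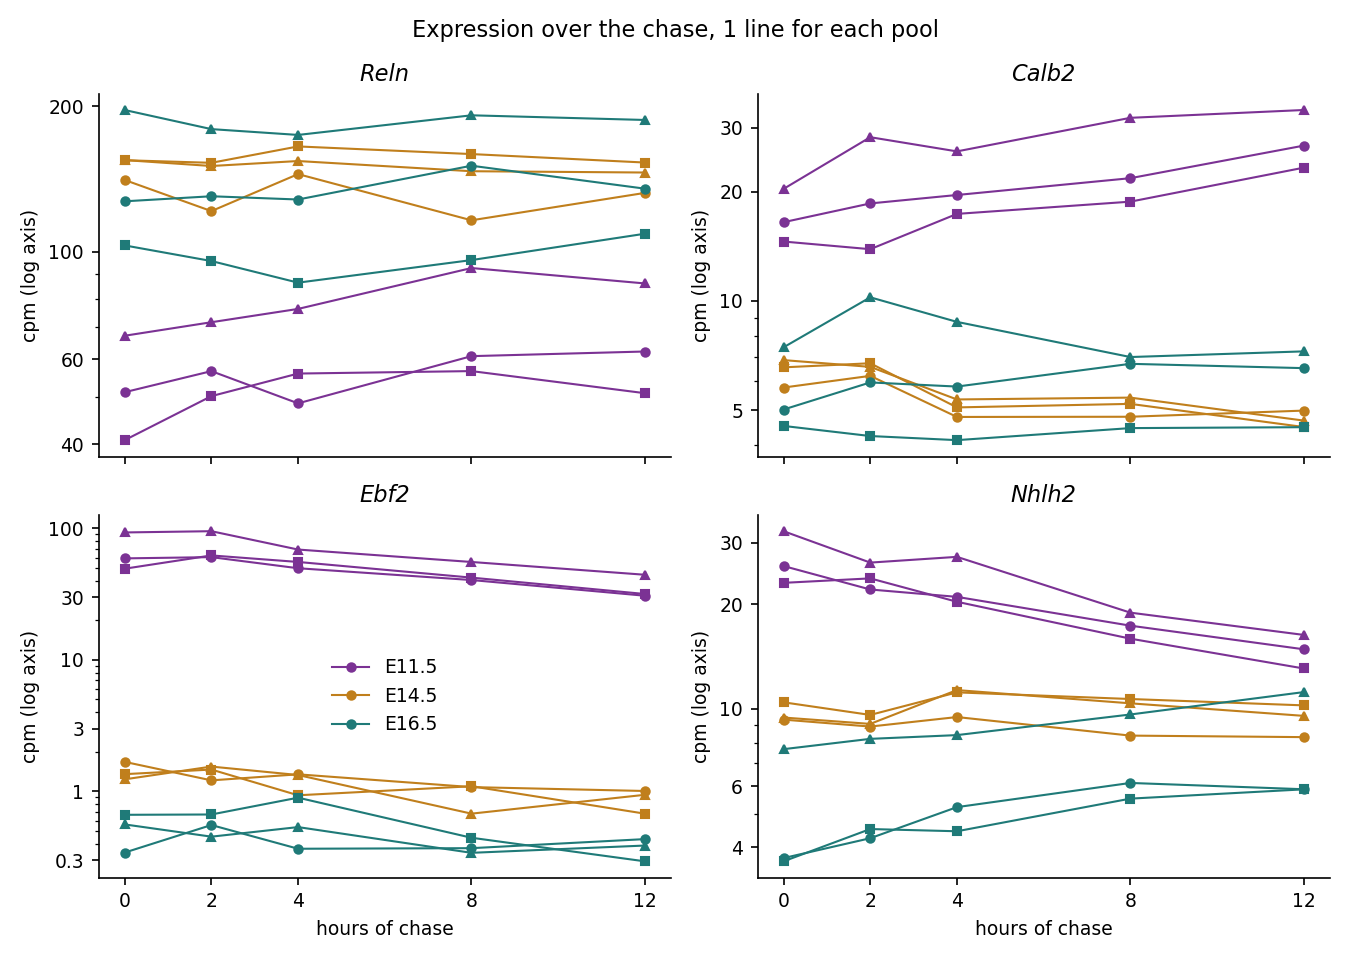
Level of Reln, Calb2, Ebf2 and Nhlh2 in cpm (logarithmic axis) against chase time in hours, 1 line per pool and stage. Nhlh2 falls at E11.5, from 23.0 to 32.4 cpm down to 13.1 to 16.3 cpm, and rises at E16.5, while Calb2 rises at E11.5.

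Other values moved with the E11.5 chase. The gene Gm42418, which lies in a ribosomal RNA repeat, took 2.97 to 6.76% of the cpm in the E11.5 libraries at 12 h and 0.386 to 0.948% at 0 h. The summed interneuron list went from 65.5 to 71.9 cpm to 93.9 to 103 cpm, and 7 of its 10 tested genes rose (9 with the block). The fitted changes at E11.5 lie above the plain cpm ratios: the mean log2 cpm ratio of Reln was 0.32 and of Calb2 0.70. Their part in the changes of the 8 genes over the chase was not tested.

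Across all 45 libraries the levels of Trp73, Lhx5, Calb2, Ebf2, Ebf3 and Nhlh2 went together and Reln went the other way. Pearson's r of log2(cpm + 0.1) lay between 0.45 (Lhx5 and Ebf2) and 0.94 (Ebf2 and Ebf3) among the 6, and between −0.86 (Ebf2) and −0.22 (Lhx5) for Reln with each of them; the libraries share 9 pools and 3 stages. The gene most like the mean profile of 7 members (Lhx1 was under a mean of 1 cpm) among 14405 genes was Tmem132c, with r = 0.94. It was followed by Wnt8b (0.92), Gm13443 (0.92), Lhx9 (0.91), Fstl1 (0.90), Lratd2 (0.90), Igfbp5 (0.90), Col4a6 (0.90), Sema3e (0.89) and Crabp2 (0.89). Lhx9, which marks other brain regions as well as early cortex, was at 28.3 to 37.3 cpm at E11.5 and at 0.190 to 2.08 cpm at E16.5, both at 0 h. Nearest to Reln alone were Sh3gl2 (0.95), Ntn1 (0.94) and Cck (0.94), and nearest to Trp73 alone Tmem132c (0.89), Wnt8b (0.88) and Col4a6 (0.88).

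As a check of the label, the data gave 6 of the 8 genes at their highest mean level at E11.5 with a call in at least 1 pair of stages, Lhx5 with its highest mean at E11.5 but no call, and Reln with its lowest. The 8 genes therefore did not follow a single course of loss over the 3 stages.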

How the data were processed

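SLAM-seq libraries of 9 pools at 5 chase times were read from 9 tables of 53491 genes. Per the submitters' notes and the study's methods, the authors aligned reads with SlamDunk to mm10 and summed GENCODE exons per gene. The deposited covered-T counts are raw numbers of T positions under reads, so 1 read adds several counts. The conversion rates deposited are fractions (converted over covered Ts), and the authors also gave reads as CPM, from which whole reads were recovered (100% of values within 0.01 of a whole number). The authors' half-lives and R2 were used only to check the refit, which came within 1% of theirs for 99.994% of 115612 fits. All columns were matched to a sample.

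Levels at 0 h were compared with edgeR 4.0.16 (TMM, quasi-likelihood, genes with more than 10 covered Ts in all 9 libraries) and called where the Benjamini-Hochberg adjusted p was below 0.05 and the absolute log2 fold change above 1. The chase test took the 18 libraries at 0 and 12 h, with no fold limit. Relative rates, log2 of (converted + 0.5) over (covered + 1) less that of the library, and z-scored half-lives were tested with limma 3.58.1. All p-values were adjusted over all genes tested. Scripts ran in R 4.3.3 and Python 3.11.15 and were tested on simulated data. Same-pool libraries at 0 h and 12 h deviated together (r 0.159 to 0.500 in all 9 pools), and pools with the same letter at different stages, which are different embryos, did not (r −0.109 to 0.110).

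Alternatives were DESeq2 1.42.0, upper-quartile factors, other count filters, whole reads, limma on log2(cpm + 0.5) or log2(cpm + 0.1), glmTreat, the replicate block, leaving out each pool, the 12 h libraries, covered Ts over 2000, R2 limits of 0.8 or none, and other fits of the half-life. The share of the rate left at 12 h, the half-life comparison of 2 stages and leaving out both C pools were added after seeing the data. The members and gene lists were chosen with earlier results of these data known. Named genes are the 8 members, at most 5 called genes per list by size of fold change, genes whose value stands beside a result, and the genes most like the members in pattern (10 for the mean profile, 3 each for Reln and Trp73). Positions and 3′ regions came from GENCODE for GRCm38, in a release other than the authors'. maSigPro, which the study used for half-lives, was not run. Precision is limited by 3 pools a stage, and p-values measure the spread between pools.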

Additional observations from a re-analysis of the deposited data

Results flagged for a closer look

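The change of Nhlh2 from 0 h to 12 h of chase differed between E16.5 and E11.5 by 1.317 on the log2 scale (edgeR adjusted p = 0.0346), and its cpm ratio was below 1 in all 3 pools at E11.5 (mean log2 ratio −0.863) and above 1 in all 3 at E16.5. The cpm of Reln went up in all 3 pools at E11.5 (mean log2 ratio 0.3199) and down in all 3 at E14.5, and that of Calb2 went up in all 3 pools at E11.5 (mean log2 ratio 0.696) and down in all 3 at E14.5. For Reln and Calb2 the difference between E11.5 and E14.5 was not tested.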

How the results depend on the processing

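Few reads covered Lhx1, Lhx5 and late Ebf2, and few converted Ts lay behind the E16.5 rates of genes other than Reln. Between E11.5 and E14.5, where 6 were called, glmTreat kept 3 calls in number and the 12 h libraries 3, and leaving out 1 pool gave 5 to 7. From E14.5 to E16.5 the count of 1 became 0 with whole reads under the same count minimum (1 with whole reads and edgeR's filterByExpr), with limma on log2(cpm + 0.5) and with glmTreat, 2 with limma on log2(cpm + 0.1), 2 with the replicate block (pool letter), 2 without both C pools and 1 to 2 when 1 pool was left out. From E11.5 to E16.5 leaving out 1 pool gave 5 to 7 against 6. At E11.5 the chase count of 2 became 7 with the replicate block (pool), 4 with no count filter and 1 to 4 when 1 pool was left out. At E14.5 the count of 1 became 5 with the block and 0 to 2 without 1 pool. At E16.5 the count of 0 became 3 with the block, 2 with no filter, 1 with whole reads and 0 to 1 without 1 pool. The differences between chases (1) became 4 with the block, 2 with DESeq2, 2 with no filter and 0 to 1 without 1 pool. The 5 relative rates at 0 h became 1 with covered Ts over 2000, where only Reln has the coverage, and 4 to 5 without 1 pool. The 2 calls on the share left at 12 h became 1 with covered Ts over 2000, 0 with the block and 0 without any 1 pool. The relative half-life count was 0 under every setting run. The background rate, taken as a low percentile of the 12 h rates, came out at 0 in every pool. Taking it off thus repeated the main fit and could not show how half-lives depend on a background. The replicate block changed no other of these counts by more than 1.5 times.

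Direction turned for values that were not called, the farthest from 0 being Lhx5 from E11.5 to E14.5 (−0.82) and Trp73 from E14.5 to E16.5 (−0.43). From E14.5 to E16.5 this held for Ebf3 (0.015 with DESeq2, 0.00274 with upper-quartile factors, 0.081 and 0.048 with whole reads, 0.024 and 0.025 with limma, 0.39 in the 12 h libraries, −0.26 to 0.13 without 1 pool), Reln (0.018 in the 12 h libraries, −0.38 to 0.11 without 1 pool), Trp73 (0.23 in the 12 h libraries), Calb2 (0.43 in the 12 h libraries, −0.37 to 0.00358 without 1 pool) and Lhx5 (−0.24 without both C pools, −0.022 in the 12 h libraries, −0.24 to 0.54 without 1 pool). In the 12 h libraries Lhx5 was at 0.017 from E11.5 to E14.5 and Lhx1 at 0.19 from E11.5 to E16.5. Over the chase Lhx5 at E14.5 was at −0.030 with the block and −0.17 to 0.13 without 1 pool, Nhlh2 at E14.5 ran from −0.12 to 0.042 and Calb2 at E16.5 from −0.051 to 0.24. The difference between chases of Ebf3 was −0.0528 with no filter, −0.071 with whole reads and −0.12 to 0.22 without 1 pool, and that of Ebf2 −0.36 to 0.33. For relative rates from E11.5 to E14.5, leaving out 1 pool gave −0.064 to 0.092 (Calb2), −0.0023 to 0.28 (Ebf3), −0.19 to 0.17 (Nhlh2) and −0.22 to 0.043 (Trp73). The share left gave −0.17 to 0.50 (Ebf3) and −0.27 to 0.42 (Trp73) for the same pair. The half-life of Nhlh2 from E14.5 to E16.5 was −0.47 in log2 hours and −0.74 to 0.53 z units without 1 pool. The causes were not tested.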
